A study of Mus musculus with 16 samples.

Results

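PA6 cells, a stromal line derived from mouse calvaria that can turn into fat cells and is used as a feeder layer for embryonic stem (ES) cells, were cultured alone for 7 days in serum-free medium without growth factors (-GFs, 3 samples) or with 20 ng/ml recombinant FGF2 (3 samples). One label field and the study's methods give FGF2 for the first 3 days, while another label field gives it for 7 days, so it is not settled here whether FGF2 was present until the RNA was taken. The comparison used 6 of the 16 Illumina bead arrays of the series. A further 3 arrays of PA6 cells given BMP4 (10 ng/ml by the labels, while the methods state a lower amount) and 5 arrays of ES/PA6 co-cultures with or without FGF2 were used to show where the FGF2 response of the stroma differed. All 16 arrays were normalized together, and the BMP4 arrays also entered the estimate of the spread behind the calls. All groups shared the serum-free medium, and the labels name no genetic change. By the study's methods, the ES cells of the co-cultures carried a knock-in of EGFP driven by the τ promoter. PA6 is a single established line, so the 3 replicates share that line, and whether they were separate preparations of cells is not stated. Members were all probes with a detection p-value below 0.05 on every array of -GFs or on every array of FGF2, which held for 16426 of 45281 probes, or 11651 of 30854 gene names. Of these genes 10753 were detected on all 6 arrays by the probe used, 646 passed only through -GFs and 252 only through FGF2. A gene that passed through a single group had to be brighter there.

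FGF2 binds receptor tyrosine kinases (FGFRs) together with heparan sulfate and signals mainly through the RAS/ERK cascade, whose known targets include ETV transcription factors, sprouty proteins, DUSP6 and cyclin D1. In stromal and preadipose cells FGF2 is known as a mitogen and a regulator of matrix, of secreted factors and of adipogenic and osteogenic fate. Feeder stroma acts on ES cells through such secreted and matrix proteins, and the PA6 mono-cultures ask which of them respond in the stroma itself.

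The arrays matched the label of a stromal cell. Of 21 stroma markers, 18 were detected on all 6 arrays, among them PDGFRA, COL1A1, VIM and CXCL12, while LEPR and NT5E were detected on none. SOX2 (pluripotent cells), PTPRC (haematopoietic cells), PECAM1 (endothelium) and PAX6 (neural cells) were undetected on all 6. Not every marker of these cell types was silent. Of 16 pluripotency markers, 9 were undetected on all 6 arrays and 2 were detected on all 6. The same counts were 11 and 2 of 17 haematopoietic, 9 and 3 of 18 endothelial, and 11 and 0 of 17 neural markers. Of 32 adipocyte genes, 14 to 21 were detected on a -GFs array and 13 to 16 on an FGF2 array, and FABP4 and PLIN were undetected on all. Between 37.9% and 41.3% of probes were detected per array, and arrays correlated across genes at 0.977 to 0.985 within a group and 0.968 to 0.982 between groups (genes are not independent replicates).

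At the study's thresholds (adjusted p below 0.1 and a log2 fold change over 1 in size, that is, more than 2-fold), 38 genes were called (limma, Benjamini-Hochberg adjustment), 0.326% of those tested. Of these, 18 were higher with FGF2 (0.154%) and 20 lower (0.172%). The study, with its own normalization, reported that PA6 cells alone no longer responded to FGF2 or BMP4 at 7 days. With the replicate number as a block, 81 genes were called (0.695%), 49 higher (0.421%) and 32 lower (0.275%), and they held all 38. The called genes are named below as "called", and those found only with the block as "called with the block". At an unadjusted p below 0.05 there were 1464 genes (12.6%), 654 higher and 810 lower, where 582.55 would be expected if nothing differed. Changes over 2-fold were few, with 108 genes higher and 64 lower (0.927% and 0.549%, or 1.48% together). The FGF2 and -GFs arrays did not overlap for 38 of the 38 called genes and for 18.4% of all genes. Of the 38, 15 had passed the detection rule through a single group.

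The calls rested on all arrays of both groups. Without -GFs replicate 1 limma called no gene, while 1322 genes had an unadjusted p below 0.05. Without -GFs replicate 3 the count was 1, without -GFs replicate 2 it was 22, and without FGF2 replicate 1, 2 or 3 it was 3, 6 or 3. Leaving out BMP4 replicate 1 or 3, which enter only the estimate of the spread, gave 59 or 20. The balance of rises and falls moved with the scaling, with 44 higher and 78 lower when arrays were scaled by their medians (which shifted the median of all genes from -0.01 to -0.13 on the log2 scale) and 22 higher and 9 lower with no background correction. A wider filter that kept 14829 genes detected in any of the 6 groups of the series left 4 calls, or 23 with the block.

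**Figure D1:**
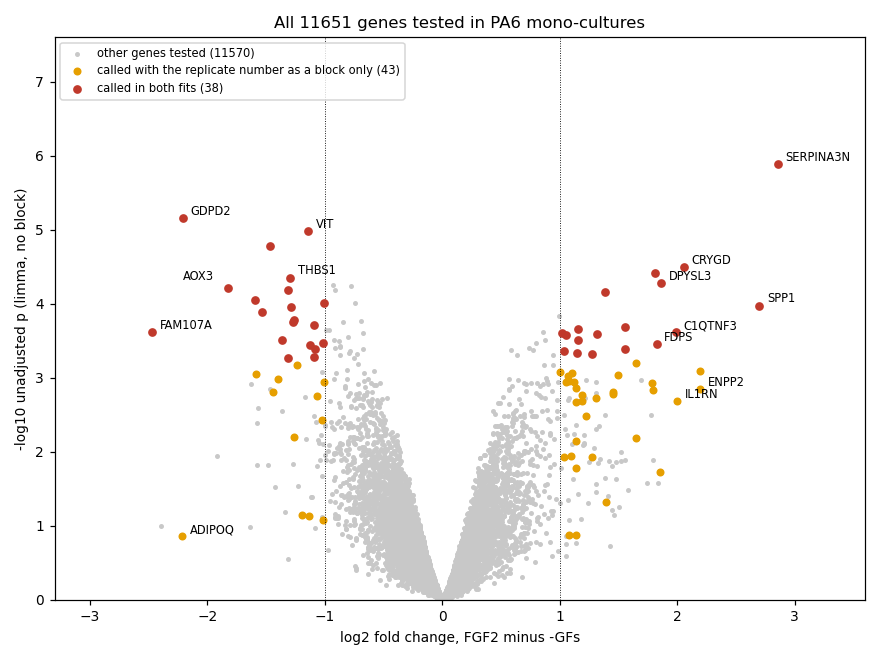
Each point is 1 of the 11651 genes tested, with the log2 fold change of FGF2 over -GFs in PA6 cells on the x axis and -log10 of the unadjusted limma p on the y axis. Dotted lines mark 2-fold, red points are the 38 genes called in both fits and orange points the 43 called only with the replicate number as a block. SERPINA3N stands highest on the right and GDPD2 on the left, and ADIPOQ is far left but low because its replicates were widely spread.

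Among the 4 largest called rises, SERPINA3N, SPP1 and C1QTNF3 encode secreted proteins. SERPINA3N, a secreted serine protease inhibitor of the acute phase, was undetected on all 3 -GFs arrays, with log2 intensities of 5.87, 6.45 and 5.49, and reached 9.26, 8.59 and 8.53 with FGF2. FGF2 raised it at least 4.36-fold (adjusted p = 0.015), and no array of the groups overlapped. SERPINA3N is one of a cluster of near-identical mouse genes, and how far its probe also reads the others was not tested. Its relatives SERPINA3G (log2 fold change 0.73 ± 0.29, SE) and SERPINA3H (0.87 ± 0.28) were not called, with adjusted p of 0.36 and 0.26. In all, 9 serpin genes were tested and SERPINA3N was the 1 that was called (0.154% of all genes were called higher). Of 20 acute phase and complement genes it was also the only call, and SOCS3 (0.05 ± 0.16), C3 (-0.05 ± 0.14) and SAA3 (0.07 ± 0.42) were not called. Both counts rest on SERPINA3N, which passed the detection rule through FGF2 alone.

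SPP1, or osteopontin, a secreted phosphoprotein of bone and inflamed tissue, had log2 intensities of 9.70, 10.07 and 8.79 without factor and 12.27, 12.43 and 11.96 with FGF2. Every FGF2 array was above every -GFs array, a 6.49-fold rise (log2 2.70 ± 0.42, adjusted p = 0.069). C1QTNF3, a secreted relative of adiponectin, rose from 9.72, 10.26 and 9.53 to 11.25, 12.61 and 11.62, which is 3.97-fold (log2 1.99 ± 0.34, adjusted p = 0.082). Its other probes, on the same RNA, differed by 1.91 and 2.27. CRYGD, a lens crystallin, was undetected without factor (5.61, 5.58 and 5.39) and detected with FGF2 (6.95, 8.25 and 7.55), at least 1.88-fold higher (adjusted p = 0.057). A second CRYGD probe was undetected on all 6 arrays.

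The other called rises were single genes of varied roles. DPYSL3, a cytoskeletal regulator of neurite growth, was up at least 3.28-fold (adjusted p = 0.057). L1CAM, an adhesion molecule of neurons, was up at least 1.91-fold (adjusted p = 0.082), and P2RY6, a receptor for pyrimidine nucleotides, at least 2.05-fold (adjusted p = 0.086). All 3 were undetected on each -GFs array and detected on each FGF2 array. RAB15, a small GTPase of endosomes, had log2 intensities of 6.61, 7.18 and 7.58 without factor and 8.92, 8.84 and 9.03 with FGF2 (log2 fold change 1.81 ± 0.25, adjusted p = 0.057). SYT13, a synaptotagmin, rose by log2 1.32 ± 0.23 and BTC, the EGF receptor ligand betacellulin, by 1.16 ± 0.20 (both adjusted p = 0.082). EGR2, an immediate early transcription factor, was at 7.08, 7.83 and 7.89 without factor and at 8.84, 8.88 and 8.90 with FGF2. Its FGF2 arrays lay close together and above all -GFs arrays (1.28 ± 0.24, adjusted p = 0.088). With no background correction, with the arrays of both groups alone or with every probe, EGR2 was no longer called.

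The falls were led by FAM107A, GDPD2 and AOX3. GDPD2, a glycerophosphodiester phosphodiesterase, was at 11.39, 11.49 and 11.51 without factor and at 8.60, 9.68 and 9.50 with FGF2. It was 4.61-fold lower (log2 -2.21 ± 0.24, adjusted p = 0.041), and a second probe fell by 2.15 on the log2 scale. The other 4 tested genes of its family were not called and lay between -0.37 and 0.12. FAM107A, an actin-associated protein, went from 9.70, 9.85 and 10.04 to 6.25, 8.37 and 7.57, where 1 FGF2 array no longer detected it (log2 -2.47 ± 0.43, adjusted p = 0.082). AOX3, an aldehyde oxidase, went from 10.81, 11.15 and 11.27 to 9.02, 8.85 and 9.89, or 3.54-fold lower (adjusted p = 0.057). ALDH1A1, which makes retinoic acid from retinaldehyde, was lower by log2 -1.27 ± 0.21 (adjusted p = 0.082). Of 20 genes of retinoid and xenobiotic metabolism tested, AOX3 and ALDH1A1 were the 2 called lower (0.172% of all genes), 16 had a negative change (5975 of all 11651 genes), and the median was -0.31 against -0.01 over all genes. With no background correction the list's median was -0.19. With median scaling it was -0.39, where that of all genes was -0.13.

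**Figure D2:**
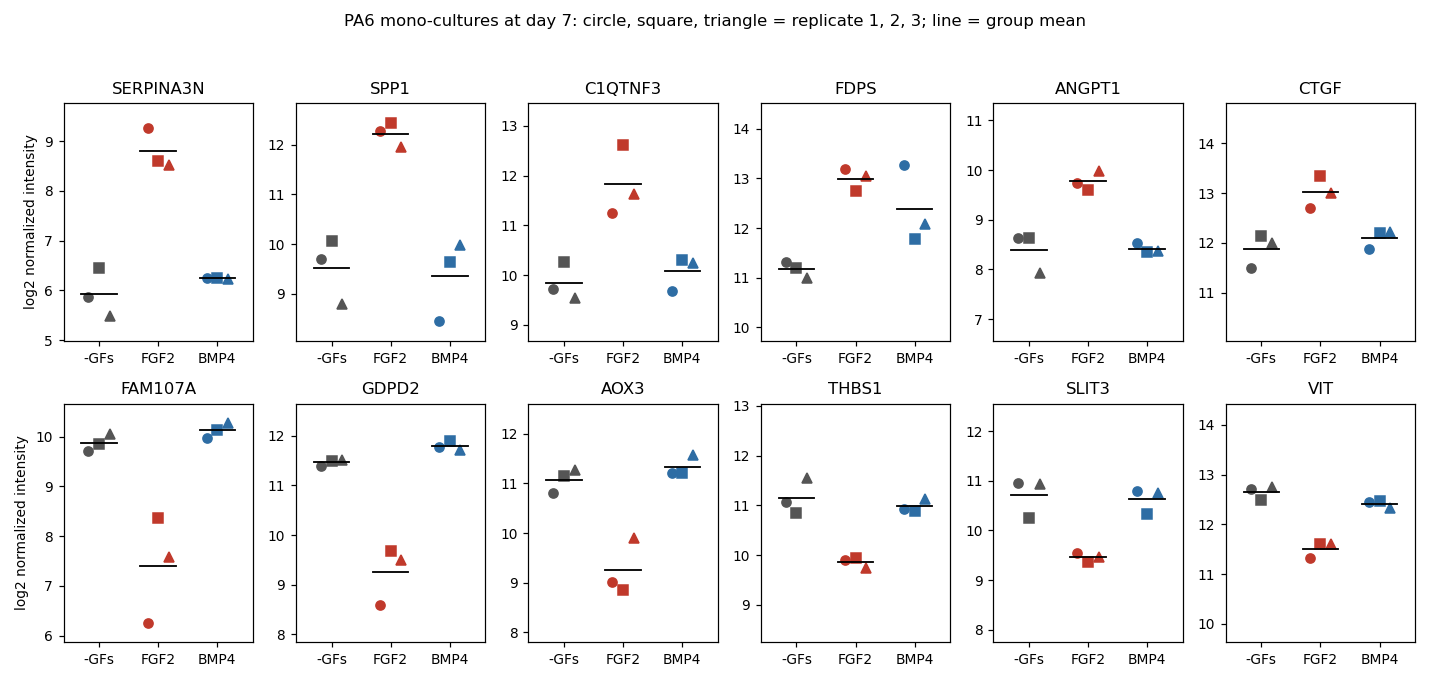
Log2 normalized intensity of 12 called genes on the 9 PA6 arrays, 3 each for -GFs (grey), FGF2 (red) and BMP4 (blue); symbols mark the replicate number, lines the group means, and every panel spans the same height. In each panel the FGF2 arrays do not overlap the -GFs arrays, and for SERPINA3N the -GFs and BMP4 arrays are below detection.

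Further falls were single genes of varied roles. SLIT3, a secreted guidance ligand, was at 10.95, 10.26 and 10.94 without factor and at 9.54, 9.36 and 9.48 with FGF2 (log2 -1.26 ± 0.21, adjusted p = 0.082). VIT, or vitrin, a matrix protein, was bright in both groups and fell from 12.72, 12.49 and 12.75 to 11.32, 11.60 and 11.61, 2.21-fold lower (adjusted p = 0.041). COL4A6, a basement membrane collagen, fell by 1.09 (adjusted p = 0.091), and UST, which sulfates chondroitin and dermatan chains, by 1.28 on the log2 scale (adjusted p = 0.069). KNG2 and KNG1, the kininogens that give rise to bradykinin, are near-identical genes that a probe may not separate. KNG2 was called (-1.36 ± 0.24, adjusted p = 0.086), and KNG1 was called with the block (-1.44 ± 0.32, adjusted p = 0.14, 0.037 with the block). CHN2 and ARHGAP18, which switch off small GTPases, fell by 1.01 and 1.09 (adjusted p = 0.068 and 0.082).

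Other falls lay close to background. B130044C16RIK, 4930506M07RIK, CPLX2 (a complexin of vesicle release), FNBP4 and HIRA (a histone chaperone) were each detected on all 3 -GFs arrays and on no FGF2 array, and were at least 1.68-, 1.58-, 1.73-, 1.49- and 1.60-fold lower, with adjusted p of 0.048, 0.074, 0.068, 0.057 and 0.094. A second FNBP4 probe, detected on 2 arrays of each group, showed a difference of 0.00. Similarly 6330500D04RIK was called (-1.12 ± 0.21, adjusted p = 0.088), while another of its probes differed by 0.19 in the opposite direction. ZFP457 and 5830427D03RIK fell by 1.08 and 1.02 (both adjusted p = 0.088). MATN4, the matrix protein matrilin-4, and LOC637711 were the smallest called rises (1.03 ± 0.19 and 1.02 ± 0.18, adjusted p = 0.088 and 0.082).

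Most genes of cholesterol synthesis were higher with FGF2. Cells make cholesterol from acetyl-CoA through mevalonate and farnesyl diphosphate. The enzymes are switched on by the transcription factor SREBF2 when cell sterol is low, with the help of NF-Y, which binds CCAAT. Of 21 genes of this list tested, 19 were higher with FGF2, 15 of them at an unadjusted p below 0.05 (5.61% of all genes were higher at that level), and 9 more than 2-fold (0.927% of all genes). The median change was log2 0.97 against -0.01 over all genes, 17 were higher at all 3 replicate numbers (19.2% of all genes), and 15 had FGF2 arrays that all lay above the -GFs arrays (9.04% of all genes). The calls were fewer, with 2 genes called and 7 with the block. The list was chosen with earlier results of these data known.

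Within the pathway, FDPS, farnesyl diphosphate synthase, was at 11.33, 11.20 and 10.99 without factor and at 13.20, 12.74 and 13.05 with FGF2, 3.54-fold higher (log2 1.82 ± 0.33, adjusted p = 0.088). A second FDPS probe differed by 1.19. STARD4, which carries cholesterol between membranes, went from 9.08, 8.91 and 8.19 to 10.68, 9.99 and 10.16 (1.55 ± 0.29, adjusted p = 0.088). Among those called with the block were MVD (1.78 ± 0.38), which completes the mevalonate steps, IDI1, the isomerase that follows it and that was undetected without factor (at least 1.66-fold higher), SQLE (1.07 ± 0.22), which oxidizes squalene, and SC4MOL (1.14 ± 0.25), a sterol demethylase. Their adjusted p were 0.13, 0.14, 0.13 and 0.13, and with the block 0.095, 0.076, 0.056 and 0.073. SREBF2 itself was at 8.73, 8.39 and 8.76 without factor and 9.64, 9.39 and 9.84 with FGF2. Its arrays did not overlap and its adjusted p was 0.082, but its rise of 0.99 ± 0.16 stopped just short of 2-fold. DHCR7, a late enzyme of the pathway, had overlapping groups and no rise (-0.08 ± 0.48).

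The promoters of MVD, IDI1 and SC4MOL, which were called with the block only, are shown because most members of the list were higher and NF-Y sites are part of the known control of the pathway. FDPS and STARD4 had no window. RefSeq-based windows of 300 bases (GRCm38.p6, 250 before to 50 after the start of the gene) were given for 15 of the 21 genes, and for 3 of the 7 called with the block. CCAAT on either strand (CCAAT or ATTGG, in capitals) was found in 14 of the 15 and in 37.4% of all 32851 windows, or 43.6% of the tested genes with a window. ACAT2 had none. A match of 5 letters is a description and does not show binding.
MVD, chr8:122443373-122443672, minus strand: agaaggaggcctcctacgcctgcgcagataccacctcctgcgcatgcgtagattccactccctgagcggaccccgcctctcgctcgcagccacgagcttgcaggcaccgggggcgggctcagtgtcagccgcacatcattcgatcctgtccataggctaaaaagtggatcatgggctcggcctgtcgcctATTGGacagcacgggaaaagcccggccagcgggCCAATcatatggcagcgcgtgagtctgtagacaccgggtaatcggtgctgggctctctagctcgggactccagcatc
IDI1, chr13:8885356-8885655, plus strand: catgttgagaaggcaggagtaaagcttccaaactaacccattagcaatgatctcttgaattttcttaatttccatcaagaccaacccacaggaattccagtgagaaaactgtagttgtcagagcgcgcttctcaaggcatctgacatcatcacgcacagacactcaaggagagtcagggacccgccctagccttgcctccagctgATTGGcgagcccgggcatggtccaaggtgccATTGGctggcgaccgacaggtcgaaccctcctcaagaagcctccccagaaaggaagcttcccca
SC4MOL (RefSeq Msmo1), chr8:64733529-64733828, minus strand: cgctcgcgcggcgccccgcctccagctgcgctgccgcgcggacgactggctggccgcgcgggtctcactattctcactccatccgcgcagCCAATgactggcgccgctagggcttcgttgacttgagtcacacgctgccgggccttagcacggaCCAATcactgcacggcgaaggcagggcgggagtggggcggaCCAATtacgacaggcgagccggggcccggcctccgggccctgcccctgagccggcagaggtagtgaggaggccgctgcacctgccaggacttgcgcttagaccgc

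The cholesterol genes also stood above -GFs in the BMP4 cultures, which share those -GFs arrays, with a median of 0.47. None of their FGF2 minus BMP4 differences was called (FDPS 0.62 ± 0.33, adjusted p = 0.57; STARD4 0.58, adjusted p = 0.54; SREBF2 0.25, adjusted p = 0.64). In the BMP4 group replicate 1 carried the highest FDPS value (13.26 against 11.78 and 12.09). Without any single array, 19 to 21 of the 21 genes stayed higher with FGF2, and without FGF2 replicate 2 that held for all 21. The calls were less stable, with 0 of the list called without any one -GFs or FGF2 array or BMP4 replicate 3 (14 or 15 genes were then higher at an unadjusted p below 0.05), 3 without BMP4 replicate 2 and 8 without BMP4 replicate 1. With median scaling the list's median was 0.90 and with no background correction 0.73.

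**Figure D3:**
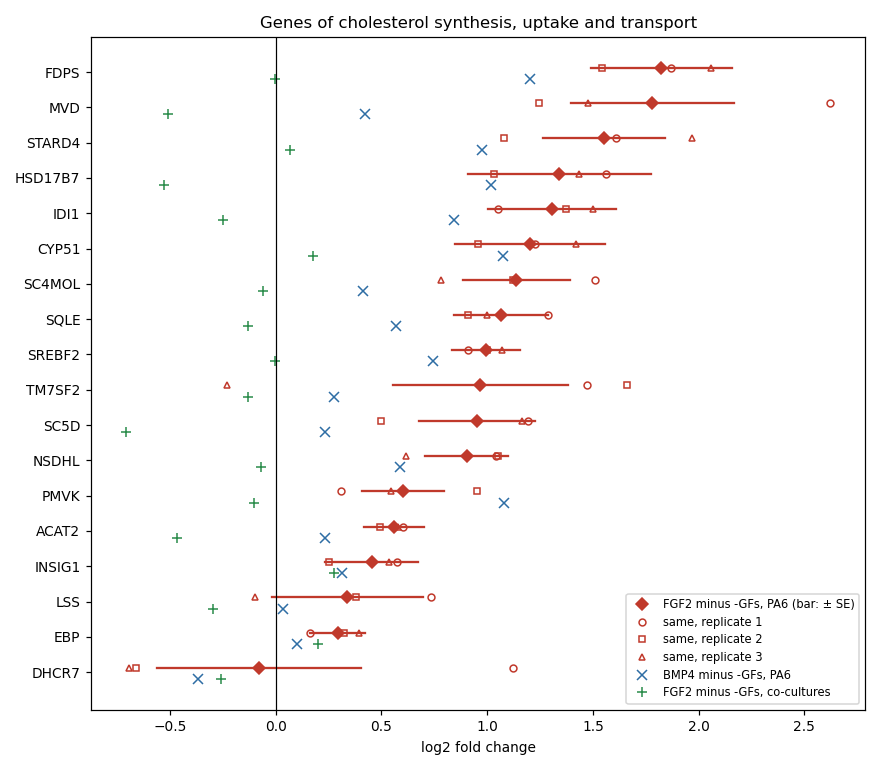
Log2 fold changes of 18 of the 21 tested genes of cholesterol synthesis, uptake and transport; red diamonds are FGF2 minus -GFs in PA6 cells with bars of ± 1 SE, open red symbols the difference at each replicate number, blue crosses BMP4 minus -GFs in PA6 cells and green plus signs FGF2 minus -GFs in co-cultures. FDPS leads at 1.82 and DHCR7 lies near 0, and over all 21 genes the co-culture values had a median of -0.10.

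Chemokines and cytokines, through which stroma recruits blood cells, leaned upward, with 13 of 18 tested genes higher (5676 of all 11651 genes). Their median was 0.20 against -0.01 over all genes. None was called, while 3 were called higher with the block (0.421% of all genes). At an unadjusted p below 0.05, 6 were higher (5.61% of all genes). IL1RN, the antagonist of the interleukin-1 receptor, was at 9.84, 10.89 and 8.91 without factor and at 11.71, 12.50 and 11.42 with FGF2 (2.00 ± 0.47, adjusted p = 0.14, 0.037 with the block). Its values were highest at replicate 2 in both groups, and all FGF2 arrays were above all -GFs arrays. CCL2, which attracts monocytes, went from 9.97, 9.25 and 10.18 to 11.41, 10.55 and 11.01 (1.19 ± 0.28, 0.061 with the block). CCL11, or eotaxin, had a change of 1.10 ± 0.35 (0.067 with the block) and its second probe one of 1.53. CCL5 (1.41 ± 0.59), CCL7 (0.77 ± 0.26) and IL11 (0.78 ± 0.20) were not called in either fit. CXCL12, the main stromal chemokine for blood progenitors, was not called (-0.03 ± 0.11).

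Direct readouts of FGF signalling were small at this time. Of 13 tested ERK targets none was called in either fit, and 9 were higher with a median of 0.28 (0.11 without -GFs replicate 1). At an unadjusted p below 0.05, 3 were higher (5.61% of all genes). CCND1, or cyclin D1, was at 12.74, 13.38 and 13.42 without factor and at 13.98, 14.20 and 14.30 with FGF2 (0.98 ± 0.23), where its adjusted p was 0.14 and, with the block, 0.040, just under the required 2-fold. ETV1 differed by 0.92 ± 0.26 and DUSP6 by 0.63 ± 0.27 (adjusted p = 0.20 and 0.38), and FOS by -0.05 ± 0.39. SPRY2, SPRY4, SPRED2 and ETV4 were not among the genes tested. Of the receptors, FGFR1 (-0.71 ± 0.29) and FGFR2 (-0.64 ± 0.15) were lower at an unadjusted p of 0.037 and 0.0016 but not called (adjusted p = 0.37 and 0.14). FGFR3 and FGFR4 were undetected on all 6 arrays. Of 26 cell cycle genes none was called, and PCNA (-0.84 ± 0.27) and MCM3 (-0.87 ± 0.34) had the lowest values.

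In the TGFβ pathway, 1 of 25 tested genes was called. Over all genes 0.326% were called, the share to hold beside this count and those of the BMP and WNT lists below. CTGF, a matricellular target of TGFβ, rose from 11.49, 12.13 and 11.999 to 12.71, 13.35 and 12.996 (1.14 ± 0.22, adjusted p = 0.088), and a second probe differed by 0.90. The ligand TGFB1 was not called, at 9.49, 9.43 and 10.30 without factor and 9.84, 9.71 and 9.91 with FGF2 (0.08 ± 0.24, adjusted p = 0.91). Neither was TGFBR1 (0.17 ± 0.15), TGFBR2 (0.04 ± 0.15) or SNAI1 (0.18 ± 0.13). INHBA, the activin A subunit, differed by 0.87 ± 0.20 and FSTL3, which binds activin, by 0.64 ± 0.20. Their adjusted p were 0.14 and 0.25, and 0.043 and 0.093 with the block, under 2-fold in both cases. Of 17 BMP pathway genes, ID3, an inhibitor of differentiation factors, was called (8.42, 8.80 and 8.496 without factor, 9.45, 9.79 and 9.64 with FGF2; 1.05 ± 0.18, adjusted p = 0.084). With median scaling or with no background correction ID3 was no longer called. ID1 (-0.25 ± 0.57) and ID2 (-0.03 ± 0.27) were not called. The ligand gene BMP4 differed by 0.88 ± 0.19, with arrays that did not overlap (adjusted p = 0.13, 0.061 with the block). No WNT pathway gene was called among 18, and FZD7, a WNT receptor, had the smallest adjusted p of them (-0.72 ± 0.14, 0.11).

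Factors that act on vessels changed in both directions. ANGPT1, the angiopoietin that activates the TEK receptor and steadies vessels, was at 8.64, 8.62 and 7.92 without factor and at 9.74, 9.60 and 9.99 with FGF2. It was 2.61-fold higher (log2 1.38 ± 0.20, adjusted p = 0.057). THBS1, or thrombospondin-1, a matrix inhibitor of angiogenesis, was at 11.06, 10.86 and 11.55 without factor and at 9.90, 9.94 and 9.75 with FGF2, which is 2.45-fold lower (-1.29 ± 0.18, adjusted p = 0.057). IGF1, a growth factor of many tissues, was called with the block (1.14 ± 0.39, adjusted p = 0.29, 0.051 with the block). Its groups overlapped, with 8.21, 8.999 and 7.502 against 9.28, 9.89 and 8.94, and the rise was seen at each replicate number. SEMA7A (1.21 ± 0.34) and SEMA3E (-1.08 ± 0.28), semaphorins, were not called, and VEGFA was near its -GFs level (-0.23 ± 0.17). Of the 22 tested factors, 13 were higher and 9 lower, with a median of 0.06.

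**Figure D4:**
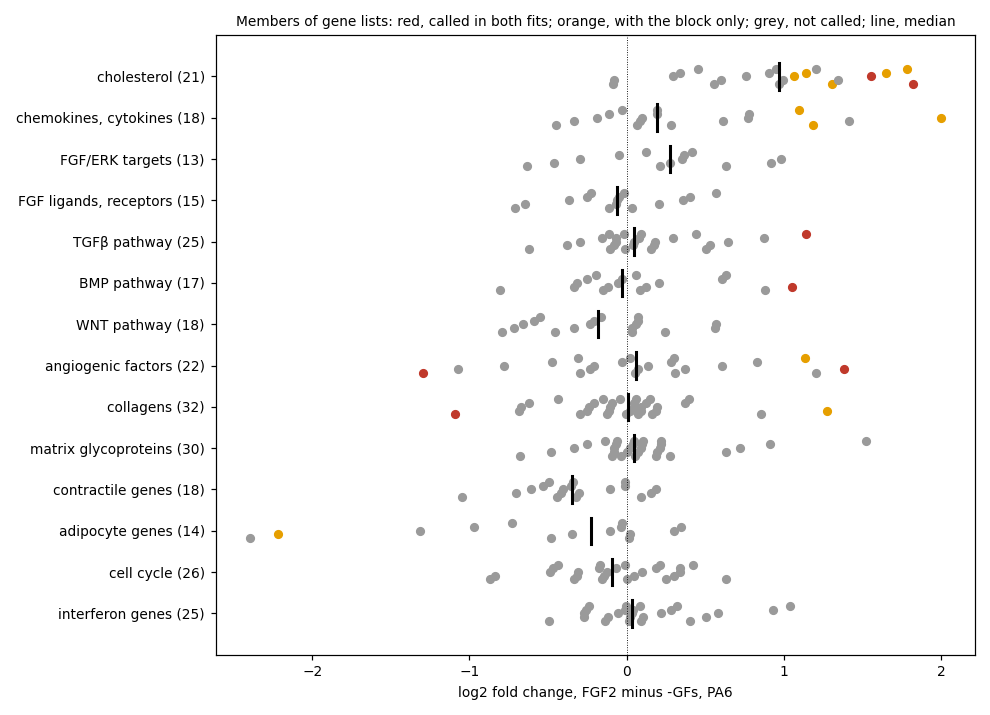
Log2 fold change of FGF2 over -GFs in PA6 cells for the tested members of 14 gene lists, with the number tested in brackets; each point is a gene, red if called in both fits, orange if called with the replicate number as a block only and grey if not called, and lines are list medians. The cholesterol list sits to the right (median 0.97), the contractile list to the left (-0.35), and most other lists centre near 0.

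Contractile and cytoskeletal genes of the smooth muscle programme leaned downward. Of 18 tested, 15 were lower with a median of -0.35, and 8 were lower at an unadjusted p below 0.05 (6.95% of all genes), but none was called in either fit. TAGLN, or SM22α, was at 6.82, 8.14 and 7.84 without factor and undetected on all FGF2 arrays (6.39, 6.81 and 6.46), at least 1.76-fold lower (adjusted p = 0.22). VCL (-0.71 ± 0.16) and FLNA (-0.61 ± 0.14), which link actin to adhesions, had non-overlapping arrays and adjusted p of 0.14 and 0.15. ACTA2, smooth muscle actin, differed by -0.41 ± 0.22. Leaving out -GFs replicate 3 or FGF2 replicate 3 lowered the number at an unadjusted p below 0.05 from 8 to 4.

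Of 32 collagen and collagen-processing genes, COL4A6 was called and COL28A1, a minor collagen, was called with the block (1.27 ± 0.41, 0.093 with the block). COL15A1, of the basement membrane zone, differed by 0.86 ± 0.15 with an adjusted p of 0.082, under 2-fold. COL1A1 (-0.67 ± 0.31) and COL3A1 (-0.24 ± 0.29) were not called. Of 30 matrix glycoproteins none was called, with a median of 0.05, and FN1 (0.05 ± 0.21) and DCN (0.02 ± 0.16) were near 0. ADAM12, a metalloprotease of muscle and fat development, went from 9.05, 8.86 and 8.65 to 7.97, 8.29 and 7.30 (-0.999 ± 0.27, adjusted p = 0.19, 0.067 with the block) and did not pass 2-fold. ENPP2, or autotaxin, which makes lysophosphatidic acid, was called with the block (6.17, 7.82 and 8.03 without factor, 9.34, 9.10 and 10.17 with FGF2; 2.20 ± 0.49, adjusted p = 0.13, 0.051 with the block).

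Several adipocyte genes varied widely between replicates. ADIPOQ, the fat-cell hormone adiponectin, was at 12.68, 8.03 and 8.89 without factor and at 9.77, 5.90 and 7.28 with FGF2. The groups overlapped, and FGF2 was lower at each replicate number, and ADIPOQ was called with the block alone (-2.22 ± 1.37 and adjusted p = 0.52 without it, 0.065 with it). CFD, or adipsin, was spread widely too (12.94, 8.62 and 8.32 against 9.23, 6.27 and 7.20; -2.40 ± 1.31, adjusted p = 0.48, 0.13 with the block), as did LPL (-1.31 ± 1.14). Replicate 1 was the highest for ADIPOQ, CFD and LPL in both groups. Of 14 tested adipocyte genes 10 were lower (5975 of all 11651 genes), with a median of -0.23, or -0.10 without -GFs replicate 1. The master regulator PPARG was not called (-0.12 ± 0.37). In such cultures fewer fat cells and less RNA per fat cell cannot be told apart. HSD11B1, which activates glucocorticoids and is abundant in fat stroma, moved the other way with the block (10.94, 9.97 and 10.49 to 12.78, 11.26 and 12.30; 1.65 ± 0.47, 0.034 with the block), and 2 further detected probes differed by 1.498 and 1.514.

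Further genes called only with the block were KCNJ15, a potassium channel (2.19 ± 0.45), IL13RA1, an interleukin receptor chain (1.85 ± 0.65), GADD45A, a growth arrest gene (1.49 ± 0.31, with a second probe at 1.28), and H19, an imprinted non-coding RNA (1.39 ± 0.61, overlapping groups). Their adjusted p with the block were 0.034, 0.094, 0.056 and 0.095. Lower were ADM, the vasodilator adrenomedullin (-1.03 ± 0.27, 0.070 with the block), CDC73 (-1.40 ± 0.30, 0.075), and LENG8 and GSK3A, which were undetected with FGF2 and at least 1.81- and 1.41-fold lower. The largest differences at an unadjusted p below 0.01 that were called in neither fit were VAV3, an activator of small GTPases (1.69 ± 0.36), RGS4, a brake on G proteins that was undetected without factor (at least 1.79-fold higher), and OLFR1085 (at least 2.07-fold). On the lower side were ECM2, PNP1 and SYT8, all undetected with FGF2 (at least 1.63-, 1.84- and 1.67-fold), TLE3 (-1.47 ± 0.33) and SLC45A3 (-1.36 ± 0.34). Their adjusted p lay between 0.13 and 0.18.

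The study also listed genes for FGF2 in PA6 cells at an earlier time, taken from other arrays and used here as names only. Of 367 such genes tested, 13 were called higher and 6 lower in the present arrays (30 and 11 with the block). Together these were 5.18% of the list (11.2% with the block), against 0.326% and 0.695% of all genes. Changes over 2-fold were seen in 16.3%, against 1.48% of all genes. The median of the list was -0.02. Directions at the earlier time were not compared, so neither the counts nor the median show whether the earlier changes persisted.

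The comparison of FGF2 with BMP4 in PA6 cells asks which changes set the FGF2 cultures apart from another factor. The -GFs arrays entered only its estimate of the spread and the normalization, and leaving out -GFs replicate 1 lowered the count below from 57 to 37. It called 57 genes (0.489%), 41 higher with FGF2 (0.352%) and 16 lower (0.137%), and 113 with the block (0.97%), 77 of them higher (0.661%) and 36 lower (0.309%). With median scaling it called 138, 81 higher and 57 lower. Leaving out FGF2 replicate 1 left 5 calls, and leaving out BMP4 replicate 1 left 12. No gene was called for BMP4 against -GFs in either limma fit. Of the 38 genes called for FGF2 against -GFs, which share the FGF2 arrays, 16 were also called here. SERPINA3N was undetected with BMP4 too (6.26, 6.25 and 6.22), and its FGF2 minus BMP4 difference had an adjusted p of 0.020. SPP1 was at 8.45, 9.65 and 9.99 with BMP4 (FGF2 minus BMP4 2.86 ± 0.42, adjusted p = 0.049). GDPD2 (-2.54 ± 0.24, adjusted p = 0.020), AOX3 (-2.07 ± 0.26, 0.031) and FAM107A (-2.74 ± 0.43, 0.058) were lower than with BMP4, and RAB15 (1.86 ± 0.25, 0.032), SYT13 (1.74 ± 0.23, 0.032) and ANGPT1 (1.36 ± 0.20, 0.051) were higher. THBS1 (-1.12 ± 0.18, 0.062), SLIT3 (-1.17 ± 0.21, 0.066) and KNG2 (-1.36 ± 0.24, 0.066) were lower as well. By contrast 4930506M07RIK was undetected with either factor (FGF2 minus BMP4 -0.12, adjusted p = 0.91), and P2RY6 (0.31, 0.64) and ZFP457 (-0.15, 0.85) were also not called here. Among fat-cell genes, CFD was called lower with FGF2 than with BMP4 (-6.76 ± 1.31, 0.088). ADIPOQ was at 15.37, 12.02 and 13.87 with BMP4 (-6.10 ± 1.37, adjusted p = 0.13 without the block and 0.0061 with it), so that it was called with the block only. The other adipocyte genes are not given for this comparison.

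In the co-cultures ES cells grew on PA6 cells, and the share of stromal RNA was not measured. The difference between both FGF2 effects (co-cultures minus PA6 cells alone, limma interaction over all 16 arrays) was called for 554 of the genes (4.75%), 291 of them positive (2.5%) and 263 negative (2.26%). It was also called for 22 of the 38 genes called in PA6 cells. Those 38 were chosen for large changes on the same PA6 arrays, which favours a difference of the opposite sign. Their count is therefore not comparable with the share over all genes. Of these 22, 12 were detected on all 5 co-culture arrays, 5 on some and 5 on none. For a gene undetected in co-cultures the difference only restates the change in PA6 cells. With the block it was called for 639 (5.48%), and with median scaling for 196, 134 positive and 62 negative. FGF2 in co-cultures had 529 calls (4.54%), 7 of them among the 38. SERPINA3N (2.18, adjusted p = 0.014), SPP1 (2.90, 0.0013), CRYGD (1.57, 0.0049), GDPD2 (-1.71, 0.034), ALDH1A1 (-2.08, 0.030) and CPLX2 (-1.36, 0.045) changed in the same direction in both, and their interaction was not called. MATN4 changed in opposite directions, at -1.49 (0.038) in co-cultures and 1.03 in PA6 cells. Its call in PA6 cells was kept in 2 of the 6 alternatives beside those that leave out an array. Among genes detected on all 5 co-culture arrays, the co-culture change was 0.00 for FDPS, -0.14 for CTGF and 0.11 for SLIT3, and the interaction was called for each (FDPS -1.83 ± 0.43, adjusted p = 0.036; CTGF -1.28 ± 0.34, 0.053; SLIT3 1.37 ± 0.39, 0.071). FAM107A was undetected on all 5 co-culture arrays, KNG2 was detected on 2 and ANGPT1 on 3, so their FGF2 effect there could not be measured well.

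**Figure D5:**
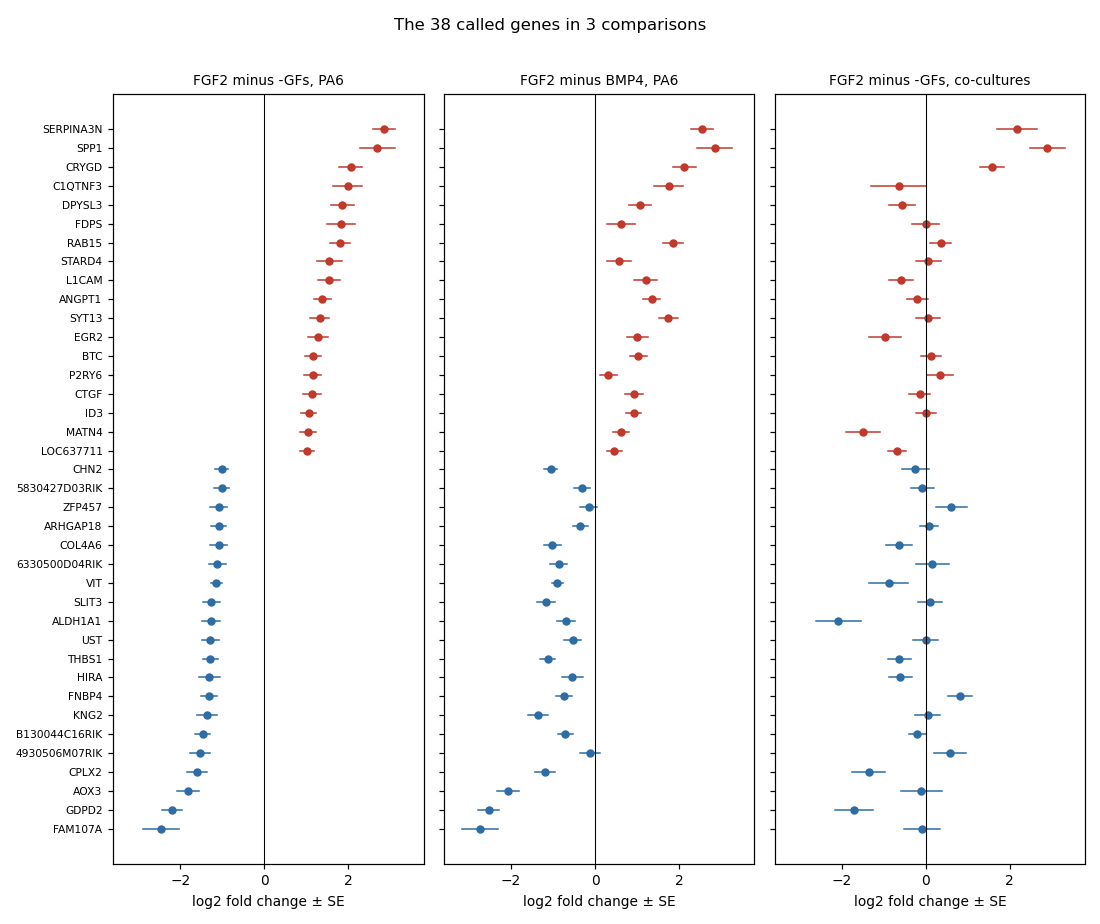
The 38 genes called for FGF2 against -GFs in PA6 cells, ordered by that change, with log2 fold changes and bars of ± 1 SE for FGF2 minus -GFs in PA6 cells (left), FGF2 minus BMP4 in PA6 cells (middle) and FGF2 minus -GFs in co-cultures (right); red marks the 18 that were higher and blue the 20 that were lower on the left. The left panel chose the genes and shares its FGF2 arrays with the middle panel. In co-cultures SERPINA3N, SPP1 and CRYGD are the rises that stand clear of 0.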

How the data were processed

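RNA of PA6 mono-cultures and ES/PA6 co-cultures was hybridised by the authors to Illumina MouseWG-6 v2.0 bead arrays and read with GenomeStudio 2011.01 (per the submitters' processing notes). The deposited table gave a raw average intensity and a detection p-value for each probe and array, with no genome build. The 16 arrays were background-corrected from the detection p-values (normexp, offset 16), quantile normalized and set to log2 with limma 3.58.1 in R 4.3.3, so small changes of dim genes are understated. Each gene was read by its passing probe with the largest mean over the 16 arrays. Groups came from the sample labels. Tests were limma fits over the 9 PA6 arrays (one mean per group), or all 16 for the interaction, with Benjamini-Hochberg adjustment over all 11651 genes, and the scripts were tested on simulated data. The number of arrays limits the precision. Per the labels, each biological replicate held one well of each treatment, and residuals of same-numbered -GFs and FGF2 arrays correlated at 0.26, 0.23 and 0.11 (different numbers -0.19 to -0.03), so that the numbers pair the samples and results with the number as a block are given. Separate preparations of cells are not stated, and p-values measure the spread between these wells. Where a group never detected a gene, its fold is a lower bound ("at least") set by the dimmest detected signal of each array. Genes named are those called in either fit (the 15 largest rises and 15 largest falls), the 10 largest further rises and falls at an unadjusted p below 0.01 with non-overlapping arrays and the same direction at all 3 replicate numbers, and members of gene lists by role. The remaining genes called without the block were added after their values were seen. Members and lists were chosen with earlier results of these data known. Names are those of the array design, and 9835 of the tested genes (84.4%) matched current gene tables. Alternatives to background correction, scaling, filter, probe choice, thresholds, block and each array were tried. A few genes counted in the lists are not reported here by name.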

Additional observations from a re-analysis of the deposited data

Results flagged for a closer look

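For 40 genes named here, the FGF2 effect in co-cultures differed from that in PA6 cells alone (limma interaction, adjusted p below 0.1 and a difference over 1 on the log2 scale). Differences are given as co-cultures minus PA6 cells. Many were named for their change on the same PA6 arrays, which favours a difference of the opposite sign. Of these genes 24 were detected on all 5 co-culture arrays. Their differences were negative, for genes higher with FGF2 in PA6 cells, for MATN4 (-2.52), DPYSL3 (-2.42), EGR2 (-2.25), 3110004L20RIK (-2.04), VAV3 (-2.04), RGS4 (-1.98), LOC666559 (-1.86), LOC637711 (-1.70), CCND1 (-1.51), RAB15 (-1.45), CTGF (-1.28), INHBA (-1.20) and ID3 (-1.05). Among cholesterol genes they were -2.29 for MVD, -1.83 for FDPS, -1.49 for STARD4, -1.20 for SC4MOL, -1.20 for SQLE and -1.03 for ACAT2. They were positive, for genes lower with FGF2 in PA6 cells, for TLE3 (1.81), ZFP457 (1.70), ADM (1.64), SLIT3 (1.37) and ARHGAP18 (1.17). A further 9 genes were detected on some co-culture arrays, with differences of -2.14 for L1CAM, -2.09 for 1110020N13RIK, -2.04 for SERPINA3H, -1.58 for ANGPT1, 1.41 for KNG2, 1.47 for GSK3A, 2.12 for 4930506M07RIK, 2.13 for FNBP4 and 2.21 for KNG1. The remaining 7 were undetected on all 5, so that their differences only restate the change in PA6 cells, which holds for FAM107A (2.37), SYT8 (1.82), ECM2 (1.77), UST (1.28), B130044C16RIK (1.27), SYT13 (-1.27) and BTC (-1.03). The part of ES-derived RNA in these differences was not tested. Groups of 3 arrays were too small for a search for single outlying samples.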

How the results depend on the processing

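Against the 38 calls for FGF2 in PA6 cells, there were 81 with the replicate number as a block, 122 with median scaling, 23 when detection was required on both groups (57 with the block), 1 with no detection filter, 4 at an adjusted p below 0.05 and 68 with no minimum fold change. The wider filter on any of the 6 groups, chosen after seeing the data, as was the block together with either filter, gave 4 and, with the block, 23. Leaving out 1 array gave 0 to 59 calls. Of the other alternatives, the arrays of both groups alone gave 38 (26 shared), normalization over the PA6 arrays 38 (37 shared), no background correction 31 (18 shared), every probe 42 and a variance prior with trend 55. Of 91 genes followed one by one none changed sign in any fit, and 13 of the 38 called genes were called in all 6 of their alternatives beside those that leave out an array, while none was called in all 9 of the latter; SERPINA3N was lost only without -GFs replicate 1 (adjusted p = 0.13), GDPD2 without -GFs replicate 1 or 3. FGF2 against BMP4 gave 57 calls, 113 with the block, 138 with median scaling and 5 to 56 without 1 array (5 without FGF2 replicate 1, 8 without FGF2 replicate 3, 12 without BMP4 replicate 1, 19 without BMP4 replicate 3, 28 without FGF2 replicate 2, 37 without -GFs replicate 1). The interaction gave 554 calls, 196 with median scaling, 639 with the block and 399 to 577 without 1 array. Fits without 1 array kept the normalization and left out that array alone. The cause of these changes was not tested. With 3 arrays a group, changes near background are the least certain.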
